A study of Homo sapiens with 18 samples.

Results

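The report concerns 34 human genes of the ATF4 response, of amino acid transport and of tRNA charging, followed across 18 RNA-seq libraries of cultured cells. The members were set as a list of symbols and matched by symbol and Ensembl gene ID: 9 regulators and stress effectors, 7 enzymes of serine, asparagine and one-carbon metabolism, 6 amino acid transporters and 12 tRNA synthetases. All 34 were found in each of the 3 gene tables, which list 15543, 31585 and 32555 genes, and all 34 passed the low-value filter in each. The synthetases stand under their older symbols, such as AARS for alanyl-tRNA synthetase.

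ATF4 is a transcription factor of the integrated stress response. Kinases that sense amino acid shortage, unfolded protein, double-stranded RNA or heme shortage phosphorylate eIF2, which slows translation in general while favouring translation of the ATF4 mRNA. ATF4 then activates genes for amino acid uptake and synthesis, tRNA charging and feedback on the response itself. Because much of this control acts on translation, the level of ATF4 mRNA does not measure ATF4 protein.

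The study set 3 groups against their controls, with 3 libraries in each of the 6 groups. SW480-LM3 is a line that the study obtained from the colorectal carcinoma line SW480 by spleen injection in 3 rounds of selection for metastasis, and it was compared with the parental cells, SW480-P. EV-XP-NID1-LX-2 is the hepatic stellate line LX-2 after 48 h with extracellular vesicles carrying NID1, the basement membrane protein nidogen. It was compared with LX-2 given control vesicles, EV-XP-LX-2, for which no incubation time was found in the labels. The letters XP are not explained. LV5-NID1 is SW480 overexpressing NID1 and treated for 72 h with GW4869, an inhibitor of neutral sphingomyelinase used to reduce vesicle release, and it was compared with LV5. Whether GW4869 was given to LV5 too is not in the labels, so overexpression and drug cannot be told apart in that comparison. They also do not say whether the libraries of a group came from separate cultures, so each p-value measures only the spread between libraries.

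The libraries were checked before the members were read. The SW480-LM3 and SW480-P table, whose unit is not named, holds reads divided by 1 factor per library. It gave back 15531517 to 16586016 reads per SW480-LM3 library and 15504205 to 18965163 per SW480-P library. The other tables hold TPM, a share of all transcripts corrected for gene length, from which depth cannot be read. NID1 was at 348, 352 and 379 TPM in LV5-NID1 and at 0, 0.04 and 0.02 TPM in LV5. In the SW480-LM3 table NID1 had 44.7, 49.1 and 46.9 signal units in SW480-LM3 and 0.57, 0.582 and 0.352 in SW480-P. In the LX-2 cells, where NID1 came with the vesicles, it was at 21.7, 18.02 and 22.6 TPM in EV-XP-NID1-LX-2 and at 25.1, 25.1 and 25.97 TPM in EV-XP-LX-2. Ranked over 14744 genes, which are not independent replicates, the SW480-LM3 profile had a Spearman rho of 0.694 with LV5, 0.713 with EV-XP-LX-2 and 0.793 with SW480-P, while SW480-P had 0.886 with LV5. A change during selection and an origin in another line therefore cannot be told apart for SW480-LM3. Colon epithelial markers summed to 13175 to 13888 units in SW480-LM3 and 3522 to 3790 in SW480-P. Of the 8 markers found in that table, 7 were at 1 or more in both. CDH1, VIL1 and KRT19 averaged 148, 384 and 1789 units in SW480-LM3, against 1.67, 10.1 and 88.1 in SW480-P. These, EPCAM, KRT8 and KRT18 were called higher in SW480-LM3 (limma adjusted p under 0.05). CDX2 was not called and LGALS4 was not tested. In LV5-NID1 and LV5 the markers CDH1, VIL1, CDX1, CDX2, KRT20 and LGALS4 were under 1 TPM, while KRT8, KRT18 and EPCAM were present. KRT19 averaged 0.103 TPM in LV5-NID1 and 2.92 TPM in LV5. KRT8 and KRT18 were present in LX-2 too, at means of 35.4 and 185 TPM in EV-XP-NID1-LX-2 and 54.8 and 199 TPM in EV-XP-LX-2. In the LX-2 groups 8 of the 9 stellate markers found were at 1 TPM or more, and LRAT was the exception. The part of these differences in the results below was not tested.

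The letters that ATF4 and its C/EBP partners are known to bind, TGATGNAAN, were looked for on both strands of 300-base promoter windows, from 250 bases before to 50 after each RefSeq gene start (GRCh38.p14). Of the 34 members, 28 had a window, and 13 of these 28 (46.4%) held the letters, against 4.45% of all 27305 genes with a window and 3.61% of all 35116 windows. The 6 members with no window in the table were NUPR1, PSPH, SHMT2, ALDH1L2, YARS and LARS. The shorter form TGATGCAA, picked after the matches had been seen and contained in the longer one, stood in 9 of 28 members (32.1%) and in 1.08% of all genes. The CREB-type letters TGACGTCA stood in PPP1R15A alone among the members (3.57%), against 2.25% of all genes. These are descriptions of letters, and the members were known ATF4 targets in large part when they were listed. The 8 stretches below are shown because genes with nearly the same letters moved in opposite directions in SW480-LM3. Each is 60 bases, 5′ to 3′ on the gene's own strand, with the match in capitals. Where the letters lie on the opposite strand, the capitals spell their reverse complement.
SLC1A5 at chr19:46784877-46784936, minus strand: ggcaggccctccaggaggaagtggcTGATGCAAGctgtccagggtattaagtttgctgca
ASNS at chr7:97872442-97872501, minus strand: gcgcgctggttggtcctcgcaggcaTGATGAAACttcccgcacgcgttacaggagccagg
AARS at chr16:70289660-70289719, minus strand: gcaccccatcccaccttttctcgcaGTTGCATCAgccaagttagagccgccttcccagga
CARS at chr11:3057394-3057453, minus strand: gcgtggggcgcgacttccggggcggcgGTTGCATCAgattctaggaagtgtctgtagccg
MARS at chr12:57488038-57488097, plus strand: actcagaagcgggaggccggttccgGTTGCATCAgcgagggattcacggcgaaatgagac
IARS at chr9:92293677-92293736, minus strand: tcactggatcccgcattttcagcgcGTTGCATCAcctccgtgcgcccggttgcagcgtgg
NARS at chr18:57621807-57621866, minus strand: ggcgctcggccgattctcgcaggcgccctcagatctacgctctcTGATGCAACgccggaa
TARS at chr5:33440935-33440994, plus strand: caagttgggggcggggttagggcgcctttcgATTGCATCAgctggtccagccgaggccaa
The match began 97 bases before the start in SLC1A5, 68 before it in ASNS and 188 before it in AARS, and it lay within 25 bases of the start in the other 5.

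In SW480-LM3 against SW480-P, 8 of the 9 regulators and stress effectors, all 6 transporters and 4 of the 12 synthetases were higher, while NUPR1 and the other 8 synthetases were lower. Of the 34 members 22 rose (64.7%), against 43.9% of all 14527 genes tested, and 11 fell (32.4%), also against 43.9%. PSAT1 was the member that was not called. The median log2 fold change was 0.59 over the members and -0.0041 over all genes tested. The groups did not overlap for 33 of 34 members (97.1%), against 87.6% of all genes, so that being called is not particular to the members here. In bulk libraries fewer cells with a transcript and less of it per cell cannot be told apart. Fold changes here and below are on the log2(value + 1) scale, with the SE of the limma fit and p-values adjusted by the Benjamini-Hochberg method over all genes of the table, and a call needs an adjusted p under 0.05.

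**Figure D1:**
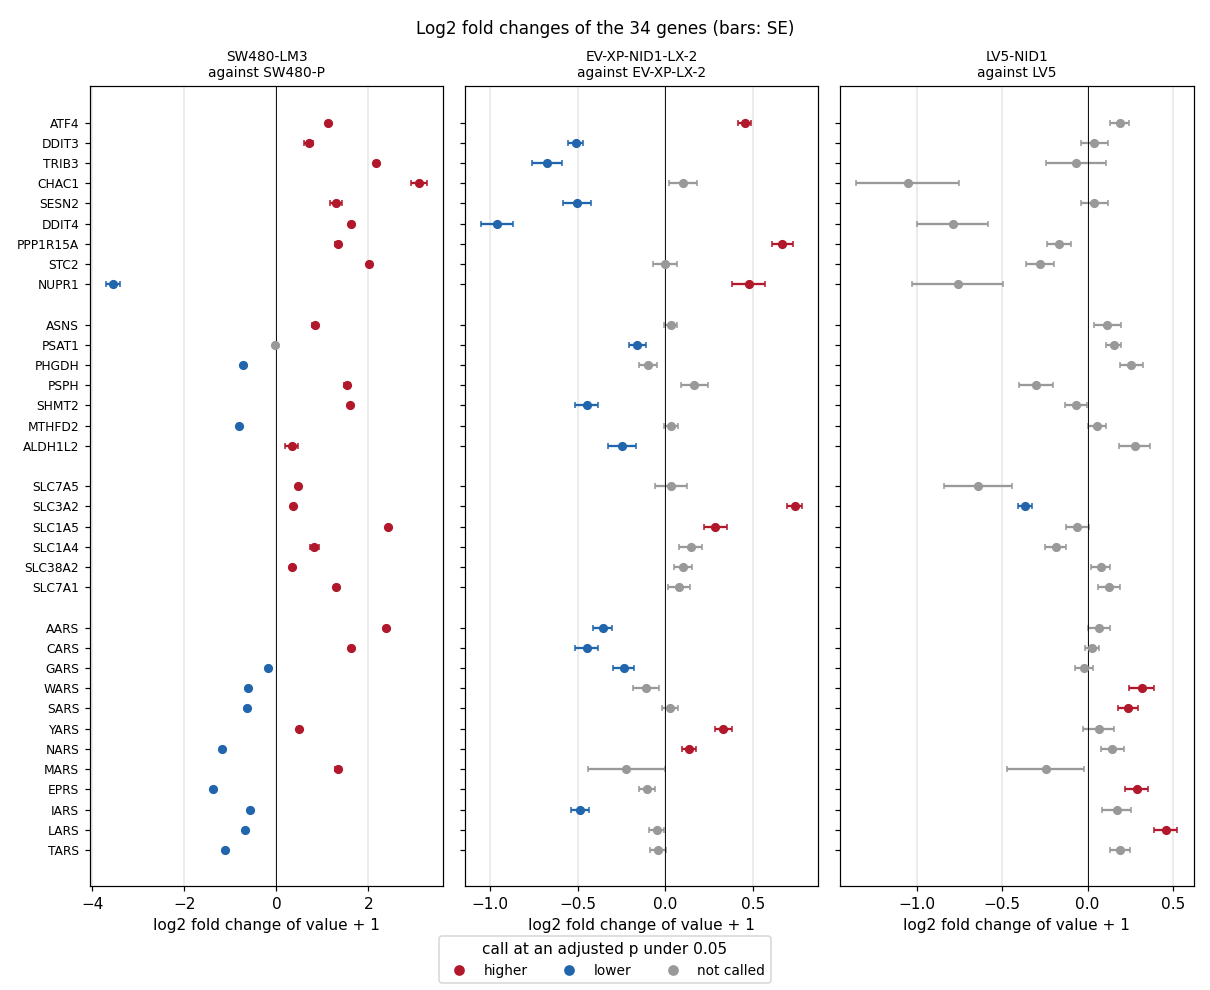
Log2 fold change (value + 1) of each of the 34 genes in the 3 comparisons, with bars of 1 SE and each panel on its own x axis. SW480-LM3 holds 22 higher and 11 lower members, EV-XP-NID1-LX-2 holds 7 and 11, and LV5-NID1 holds 4 and 1.

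Of the 9 regulators and stress effectors, 8 rose and 1 fell in SW480-LM3, with a median log2 fold change of 1.34. ATF4 (chr22:39519695-39522685, plus strand, GENCODE 29 on GRCh38) had 319, 325 and 338 signal units in the SW480-LM3 libraries, against 157, 147 and 148 in the SW480-P libraries. Its groups did not overlap and its log2 fold change was 1.11 ± 0.04 (SE, n = 3 each, limma adjusted p = 8.71e-13). TRIB3, a pseudokinase that is an ATF4 target and restrains its activity, had 115, 129 and 129 units in SW480-LM3, against 26.9, 26.8 and 26.9 in SW480-P. Every SW480-LM3 library stood above every SW480-P library, with a log2 fold change of 2.17 ± 0.06 (SE).

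CHAC1, which degrades glutathione, was near the floor of the parental cells. It had 13.8, 10.9 and 12.1 units in SW480-LM3 and 0.498, 1.05 and 0.211 in SW480-P. Counted in recovered reads this was 648 against 28 over the 3 libraries of each group, a depth-scaled ratio of 19.9 (95% interval 13.7 to 30.2, counting error only). Its log2 fold change of 3.10 ± 0.18 (SE) understates the change because of the pseudocount. STC2, a secreted glycoprotein, had 129, 137 and 139 units in SW480-LM3, against 34.3, 31.2 and 32.2 in SW480-P. DDIT4, an inhibitor of the mTORC1 kinase complex, had 299.9, 341 and 352 units in SW480-LM3, against 106, 109 and 104 in SW480-P. Neither gene's groups overlapped, and the log2 fold changes were 2.02 ± 0.05 for STC2 and 1.63 ± 0.05 for DDIT4 (SE).

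PPP1R15A, the phosphatase subunit that restores eIF2, averaged 62.8 ± 2.83 units in SW480-LM3 and 24.3 ± 2.19 in SW480-P (SD, n = 3 each). SESN2, a leucine sensor upstream of mTORC1, averaged 16.1 ± 0.901 in SW480-LM3 and 6.0 ± 0.967 in SW480-P. DDIT3, the transcription factor of the late stress response, averaged 19.7 ± 0.907 in SW480-LM3 and 11.7 ± 0.491 in SW480-P. All 3 rose. NUPR1, a small stress-induced nuclear protein, went the other way, at 0.233, 0 and 0.434 units in SW480-LM3 and 14.2, 12.2 and 13.2 in SW480-P. Its 12 reads against 596 gave a depth-scaled ratio of SW480-P over SW480-LM3 of 57.7 (95% interval 32.8 to 112, counting error only), and its log2 fold change of -3.55 ± 0.15 (SE) depends on the pseudocount.

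**Figure D2:**
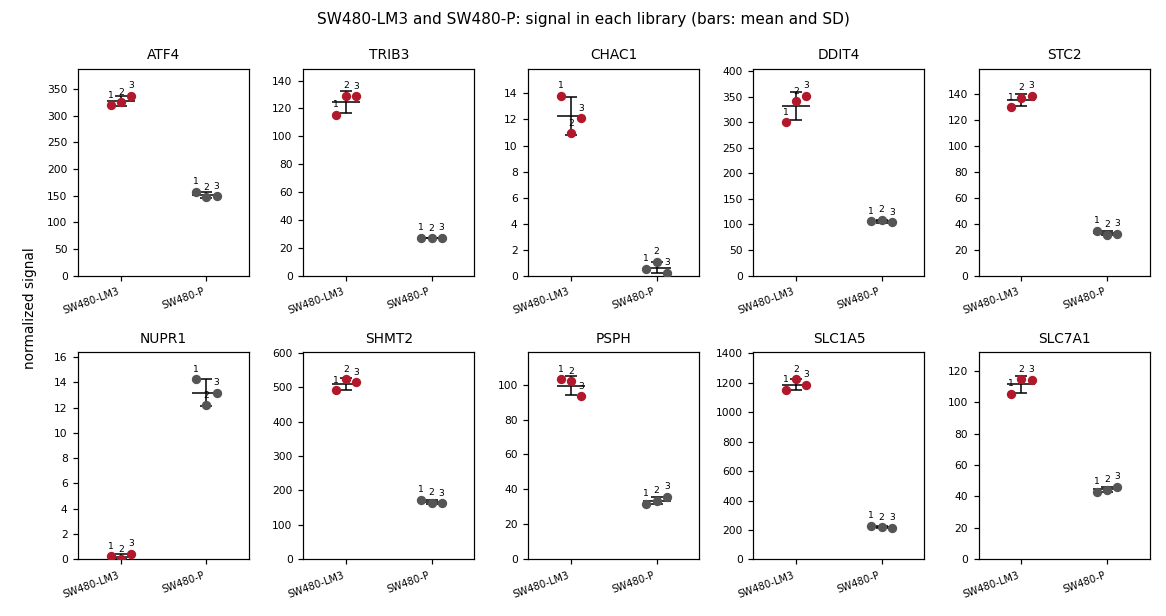
Normalized signal of 10 members in each SW480-LM3 library (left in each panel) and each SW480-P library (right), numbered by replicate, with mean and SD and the y axis from 0. The groups do not overlap in any of the 10 panels, and NUPR1 is the panel in which SW480-LM3 is the lower group.

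The serine, asparagine and one-carbon enzymes divided in SW480-LM3: 4 rose, 2 fell and 1 was not called, with a median log2 fold change of 0.33. In the serine pathway itself the first step fell and the last rose. PHGDH, the first enzyme, averaged 65.3 ± 3.67 units in SW480-LM3 and 109 ± 6.24 in SW480-P (SD, n = 3 each). PSAT1, the second, averaged 185 ± 6.47 in SW480-LM3 and 188 ± 2.45 in SW480-P, with overlapping groups and a log2 fold change of -0.02 ± 0.04 (SE, limma adjusted p = 0.586). PSPH, the last, had 103, 102 and 93.2 units in SW480-LM3, against 31.8, 33.5 and 35.7 in SW480-P. The PSPH groups did not overlap (log2 fold change 1.53 ± 0.06, SE).

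The 2 mitochondrial folate enzymes that follow serine also moved apart. SHMT2, which passes the serine carbon to folate, had 491, 523 and 514 units in SW480-LM3, against 172, 165 and 162 in SW480-P, a log2 fold change of 1.61 ± 0.04 (SE). MTHFD2, which acts next on that carbon, averaged 156 ± 2.51 in SW480-LM3 and 275 ± 6.01 in SW480-P (SD). ASNS, asparagine synthetase, averaged 84.0 ± 1.28 in SW480-LM3 and 47.0 ± 2.93 in SW480-P and rose by 0.83 on the log2 scale. ALDH1L2, a mitochondrial folate dehydrogenase, was low at 4.31 ± 0.5 units in SW480-LM3 and 3.22 ± 0.355 in SW480-P. Its call (limma adjusted p = 0.0336) was lost under several other settings, with adjusted p-values between 0.00143 and 0.152.

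All 6 amino acid transporters rose in SW480-LM3, with a median log2 fold change of 0.64 and a range of 0.34 to 2.43. SLC1A5, a carrier of glutamine and other neutral amino acids (chr19:46774883-46788594, minus strand), had 1153, 1224 and 1185 units in SW480-LM3, against 227, 217 and 213 in SW480-P. Every SW480-LM3 library stood far above every SW480-P library, a log2 fold change of 2.43 ± 0.03 (SE, limma adjusted p = 1.15e-16). SLC7A1, a carrier of cationic amino acids, averaged 111 ± 5.25 in SW480-LM3 and 44.5 ± 1.41 in SW480-P (SD, n = 3 each). SLC1A4, a carrier of alanine, serine and cysteine, averaged 22.5 ± 0.760 in SW480-LM3 and 12.3 ± 1.45 in SW480-P. The remaining 3 rose by less than 0.5 on the log2 scale. SLC7A5 and SLC3A2, the light and heavy chains of 1 exchanger of large neutral amino acids, had log2 fold changes of 0.46 ± 0.04 and 0.36 ± 0.05, and SLC38A2, a sodium-coupled neutral carrier, 0.34 ± 0.04 (SE). All 6 rose under quantile normalization and library-total scaling too.

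The 12 tRNA synthetases divided: 4 rose, 8 fell, and the median log2 fold change was -0.60. AARS, for alanine (chr16:70252295-70289543, minus strand), had 347, 369 and 361 units in SW480-LM3, against 69.1, 68.9 and 68.0 in SW480-P, a log2 fold change of 2.37 ± 0.04 (SE). CARS, for cysteine, had 138, 145 and 139 units in SW480-LM3, against 45.2, 44.8 and 45.5 in SW480-P, a log2 fold change of 1.62 ± 0.04. In both, all SW480-LM3 libraries stood above all SW480-P libraries. MARS, for methionine, averaged 145 ± 2.85 in SW480-LM3 and 56.9 ± 6.70 in SW480-P (SD, n = 3 each), and YARS, for tyrosine, averaged 141 ± 4.91 in SW480-LM3 and 101 ± 4.25 in SW480-P. MARS (chr12:57475445-57517569, plus strand) overlaps DDIT3 (chr12:57516588-57521737, minus strand) at its end. Its largest overlap, of 13370 bases, is with ARHGAP9 on the minus strand. DDIT3 also overlaps MBD6 on the plus strand and AC022506.1 on the minus strand. Whether reads were counted by strand is not given in the sources used here, so some reads could belong to an overlapping gene.

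The lower synthetases were led by EPRS, for glutamate and proline, at 185 ± 6.11 units in SW480-LM3 and 484 ± 22.8 in SW480-P (SD), a log2 fold change of -1.38 ± 0.04 (SE). NARS, for asparagine, averaged 111 ± 0.389 in SW480-LM3 and 255 ± 3.66 in SW480-P. TARS, for threonine, averaged 383 ± 3.20 in SW480-LM3 and 828 ± 28.2 in SW480-P. LARS, SARS, WARS and IARS, for leucine, serine, tryptophan and isoleucine, fell by 0.68, 0.64, 0.62 and 0.58 on the log2 scale. GARS, for glycine, had the smallest called change, -0.19 ± 0.04 (SE), and turned positive at 0.049 under quantile normalization and at 0.10 under library-total scaling. Within the 300-base windows the promoter letters did not separate the directions. Of the 13 members that held TGATGNAAN, 9 rose and 4 fell. Of the 15 that did not, 9 rose, 5 fell and PSAT1 was not called. Sites outside the windows were not looked for, so a member without the letters here may hold them elsewhere. AARS, CARS and MARS, which rose, and IARS, NARS and TARS, which fell, all held TGATGCAA.

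**Figure D3:**
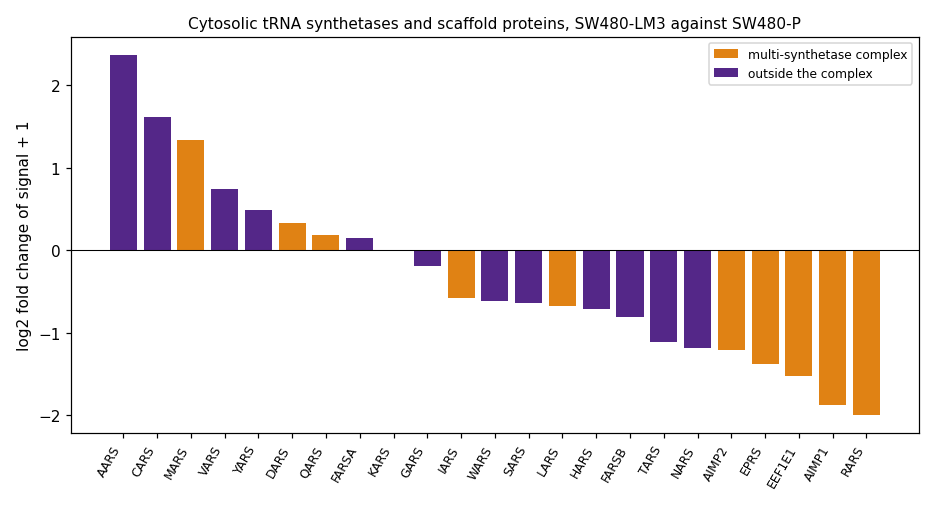
Log2 fold change (signal + 1) of 23 genes for cytosolic tRNA synthetases and scaffold proteins in SW480-LM3 against SW480-P, from highest to lowest, coloured by membership of the multi-synthetase complex, with no error bars drawn. AARS, CARS and MARS stand highest, and RARS and AIMP1 of the complex stand lowest.

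Other genes of the pathway gave the following counts in SW480-LM3, where 43.9% of all genes tested rose and 43.9% fell. A count near these shares is not read as particular to its list. Of 15 listed genes for eIF2, its kinases, eIF2B and eIF2 phosphatase, 14 were tested. Of these 2 rose (14.3%) and 11 fell (78.6%), with a median log2 fold change of -0.46. EIF2S1, the subunit that the kinases phosphorylate, averaged 126 ± 4.57 in SW480-LM3 and 350 ± 3.63 in SW480-P (SD). EIF2S2 averaged 227 ± 4.59 in SW480-LM3 and 524 ± 9.49 in SW480-P, and EIF2B3, of the exchange factor that recycles eIF2, averaged 16.3 ± 1.30 in SW480-LM3 and 72.3 ± 3.08 in SW480-P.

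Among 19 other ATF4-linked factors and targets, 11 rose (57.9%) and 7 fell (36.8%). GPT2, a mitochondrial alanine transaminase, averaged 184 ± 8.32 units in SW480-LM3 and 12.1 ± 0.599 in SW480-P. GDF15, a secreted stress cytokine, averaged 64.8 ± 3.93 in SW480-LM3 and 3.60 ± 1.01 in SW480-P, and SESN3 averaged 107 ± 2.57 in SW480-LM3 and 16.4 ± 2.43 in SW480-P. All 3 rose. Among 16 other amino acid transporters, 7 rose (43.8%) and 8 fell (50%), so directions were mixed in the wider family. SLC7A8 averaged 158 ± 0.931 in SW480-LM3 and 21.2 ± 0.808 in SW480-P, while SLC7A2, another cationic carrier, averaged 0.211 ± 0.126 in SW480-LM3 and 71.6 ± 2.40 in SW480-P. SLC1A1, a glutamate carrier, averaged 0.171 ± 0.007 in SW480-LM3 and 15.6 ± 1.01 in SW480-P.

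Among the 11 other cytosolic synthetases and scaffold proteins, 4 rose (36.4%) and 6 fell (54.5%). RARS, for arginine, averaged 88.8 ± 5.64 in SW480-LM3 and 358 ± 25.7 in SW480-P, AIMP1, a scaffold protein, averaged 34.8 ± 2.95 in SW480-LM3 and 131 ± 4.51 in SW480-P, and EEF1E1, another, averaged 40.5 ± 0.411 in SW480-LM3 and 119 ± 2.54 in SW480-P. Grouped after the values had been seen, 3 of 11 genes of the multi-synthetase complex rose and 7 fell, while 5 of 12 outside it rose and 7 fell. Among 17 mitochondrial synthetases 5 rose (29.4%) and 9 fell (52.9%). WARS2 fell by 1.51 and HARS2 by 1.09 on the log2 scale, and VARS2 rose by 1.74.

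The neighbouring stress branches went both ways in SW480-LM3. Of 13 ER chaperone and XBP1-branch genes 6 rose (46.2%) and 7 fell (53.8%), against 43.9% of all genes tested each way. PDIA4, an ER disulfide isomerase, rose by 0.99 on the log2 scale, and SEC61B, of the translocation channel, fell by 1.56. HSP90B1, an ER chaperone, had a log2 fold change of -0.75 that turned positive at 0.10 under quantile normalization. Of 10 interferon-induced genes 4 rose (40%) and 4 fell (40%). IRF1 rose by 1.57 on the log2 scale, while BST2 averaged 1.81 ± 0.376 units in SW480-LM3 and 269 ± 14.5 in SW480-P, and IFITM1 averaged 0.0557 ± 0.0541 in SW480-LM3 and 29.5 ± 1.24 in SW480-P.

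In LX-2 cells given NID1 vesicles, ATF4 and SLC3A2 were higher while several known ATF4 targets were lower. Of the 34 members 7 rose (20.6%), against 17.8% of all 15802 genes tested, and 11 fell (32.4%), against 24.6%. The remaining 16 were not called. Under median-ratio scaling 12 rose and 11 fell, and the share of higher among all genes called was 51.2%, against 41.9% as deposited. The median log2 fold change was -0.02 over the members and -0.05 over all genes, and no member changed by 1 or more on the log2 scale. The groups did not overlap for 22 of 34 members (64.7%), against 55.9% of all genes. The share of TPM in mitochondrially encoded mRNAs was 3.52% to 3.78% in EV-XP-NID1-LX-2 and 5.95% to 6.17% in EV-XP-LX-2, and after rescaling without those genes the count of genes called was 6822, against 6687. Stellate markers summed to 1655 to 1964 TPM in EV-XP-NID1-LX-2 and 2352 to 2520 TPM in EV-XP-LX-2. Most of this sum was VIM, which averaged 1341 TPM in EV-XP-NID1-LX-2 and 1887 TPM in EV-XP-LX-2. COL1A1, COL3A1 and PDGFRB were also called lower, while COL1A2, ACTA2, TAGLN and RGS5 were not called. Leukocyte markers summed to 16.7 to 22.4 TPM in EV-XP-NID1-LX-2 and 43.4 to 46.9 TPM in EV-XP-LX-2, nearly all of it CD68, with PTPRC under 0.05 TPM in both. The part of these markers in the results was not tested. Members given with each library's value in this and the next comparison were, except for ATF4, picked after their values had been seen.

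ATF4 had 632, 623 and 630 TPM in EV-XP-NID1-LX-2, against 461, 460 and 457 TPM in EV-XP-LX-2. The groups were tight and did not overlap (log2 fold change 0.45 ± 0.04, SE, n = 3 each, limma adjusted p = 3.00e-04). PPP1R15A, the eIF2 phosphatase subunit, had 1065, 954 and 1049 TPM in EV-XP-NID1-LX-2, against 633, 679 and 617 TPM in EV-XP-LX-2, a log2 fold change of 0.67 ± 0.06. NUPR1 averaged 25.9 ± 2.05 TPM in EV-XP-NID1-LX-2 and 18.3 ± 2.07 TPM in EV-XP-LX-2 (SD, n = 3 each). These were the 3 regulators that rose.

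The 4 regulators that fell were DDIT3, TRIB3, SESN2 and DDIT4. DDIT4 had 46.9, 38.1 and 46.4 TPM in EV-XP-NID1-LX-2, against 88.4, 79.8 and 89.8 TPM in EV-XP-LX-2. Every library given NID1 vesicles lay below every control library, with a log2 fold change of -0.96 ± 0.09 (SE), the largest among the members. TRIB3 had 73.0, 60.9 and 75.6 TPM in EV-XP-NID1-LX-2, against 117, 108 and 111 TPM in EV-XP-LX-2 (log2 fold change -0.68 ± 0.08). DDIT3 had 98.3, 104 and 99.9 TPM in EV-XP-NID1-LX-2, against 147, 141 and 144 TPM in EV-XP-LX-2 (-0.51 ± 0.04). SESN2 averaged 20.2 ± 2.1 TPM in EV-XP-NID1-LX-2 and 28.95 ± 0.560 TPM in EV-XP-LX-2 (SD). CHAC1 and STC2 were not called, at log2 fold changes of 0.10 ± 0.08 and -0.00 ± 0.07 (SE).

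**Figure D4:**
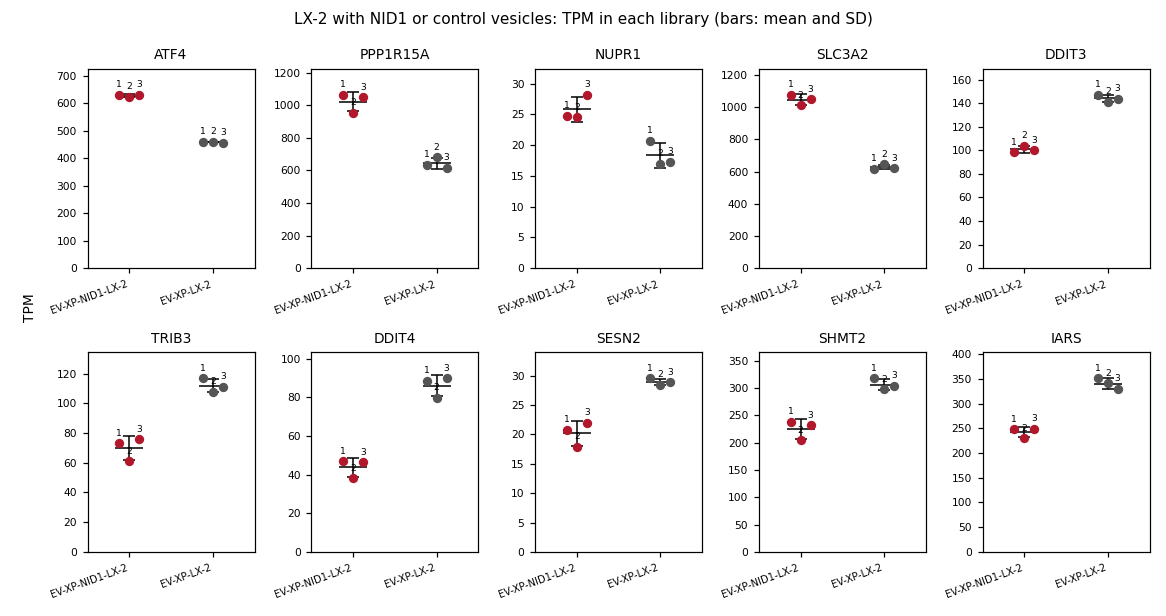
TPM of 10 members in each EV-XP-NID1-LX-2 library (left in each panel) and each EV-XP-LX-2 library (right), numbered by replicate, with mean and SD and the y axis from 0. The groups do not overlap in any of the 10 panels, with ATF4, PPP1R15A, NUPR1 and SLC3A2 higher and the other 6 lower in EV-XP-NID1-LX-2.

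Among the enzymes none rose and 3 of 7 fell in EV-XP-NID1-LX-2. SHMT2 averaged 225 ± 18.1 TPM in EV-XP-NID1-LX-2 and 306 ± 10.2 TPM in EV-XP-LX-2 (SD, n = 3 each), a log2 fold change of -0.45 ± 0.07 (SE). PSAT1 (288 ± 13.9 TPM in EV-XP-NID1-LX-2 and 321 ± 4.10 TPM in EV-XP-LX-2) and ALDH1L2 (11.6 ± 0.950 TPM in EV-XP-NID1-LX-2 and 13.9 ± 0.309 TPM in EV-XP-LX-2) fell too, at limma adjusted p-values of 0.0308 and 0.0376 that crossed the threshold under other settings. ASNS, PHGDH, PSPH and MTHFD2 were not called, with log2 fold changes between -0.10 and 0.16.

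Among the transporters 2 of 6 rose and none fell. SLC3A2, the heavy chain, had 1078, 1012 and 1048 TPM in EV-XP-NID1-LX-2, against 618, 644 and 620 TPM in EV-XP-LX-2, with no overlap and a log2 fold change of 0.74 ± 0.04 (SE, limma adjusted p = 1.74e-04). Its partner SLC7A5 had 204, 161 and 205 TPM in EV-XP-NID1-LX-2, against 182, 186 and 186 TPM in EV-XP-LX-2. For SLC7A5 the groups overlapped and the change was 0.03 ± 0.09. SLC1A5 averaged 302 ± 24.4 TPM in EV-XP-NID1-LX-2 and 247 ± 6.18 TPM in EV-XP-LX-2 (SD), and its call was lost under quantile normalization (limma adjusted p = 0.0617, range over the alternatives 7.11e-04 to 0.0617). SLC1A4, SLC38A2 and SLC7A1 had log2 fold changes of 0.14, 0.10 and 0.08 and were not called. In this comparison replicate 2 of EV-XP-NID1-LX-2 was the lowest of its group for all 6 transporters, and without it 13 members rose, against 7 with it.

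Among the synthetases 2 rose, 4 fell and 6 were not called in EV-XP-NID1-LX-2. YARS averaged 407 ± 18.8 TPM in EV-XP-NID1-LX-2 and 323 ± 8.42 TPM in EV-XP-LX-2 (SD, n = 3 each). NARS, at 305 ± 5.78 TPM in EV-XP-NID1-LX-2 and 278 ± 6.82 TPM in EV-XP-LX-2, was called at a limma adjusted p of 0.0343, which ranged between 0.0230 and 0.462 under other settings. IARS averaged 242 ± 10.9 TPM in EV-XP-NID1-LX-2 and 340 ± 10.6 TPM in EV-XP-LX-2, and CARS averaged 92.7 ± 7.62 TPM in EV-XP-NID1-LX-2 and 127 ± 2.13 TPM in EV-XP-LX-2. AARS averaged 177 ± 11 TPM in EV-XP-NID1-LX-2 and 227 ± 1.48 TPM in EV-XP-LX-2, and GARS averaged 257 ± 17.1 TPM in EV-XP-NID1-LX-2 and 304 ± 11.9 TPM in EV-XP-LX-2. These 4 fell. MARS was too scattered to read, at 446, 261 and 483 TPM in EV-XP-NID1-LX-2 and 445, 397 and 506 TPM in EV-XP-LX-2.

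The pathway lists in EV-XP-NID1-LX-2 are given beside the 17.8% of all genes tested that rose and the 24.6% that fell. Of the 19 other ATF4-linked genes that passed the low-value filter, 3 rose (15.8%) and 10 fell (52.6%). Their median log2 fold change was -0.21. ATF3, a transcription factor of the same response, averaged 158 ± 9.05 TPM in EV-XP-NID1-LX-2 and 100.3 ± 4.90 TPM in EV-XP-LX-2 (SD), and ATF5, a related factor, averaged 23.9 ± 3.51 TPM in EV-XP-NID1-LX-2 and 12.5 ± 0.838 TPM in EV-XP-LX-2. PCK2, a mitochondrial PEP carboxykinase, averaged 82.0 ± 7.60 TPM in EV-XP-NID1-LX-2 and 136 ± 4.72 TPM in EV-XP-LX-2. Among 15 genes for eIF2, its kinases, eIF2B and eIF2 phosphatase, 3 rose (20%) and 4 fell (26.7%). EIF2S1 had a log2 fold change of 0.67, EIF2S2 of -0.69 and the heme-regulated kinase EIF2AK1 of -0.46.

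Among 11 other transporters 5 rose (45.5%) and 1 fell (9.09%) in EV-XP-NID1-LX-2. SLC1A3, a glutamate carrier, was at 1.21, SLC38A1 at 0.36 and SLC1A1 at -0.75 on the log2 scale. Among 11 other cytosolic synthetases and scaffold proteins 4 rose (36.4%) and 2 fell (18.2%). KARS, for lysine, rose by 0.26, while QARS, for glutamine, and HARS, for histidine, fell by 0.88 and 0.31. Among 17 mitochondrial synthetases 3 rose (17.6%) and 4 fell (23.5%), with SARS2 at -0.80 and HARS2 at -0.22. HARS2 was the 1 gene of the 21 picked from these lists that lost its call under an alternative (limma adjusted p up to 0.0508). Of 13 ER chaperone and XBP1-branch genes 5 rose (38.5%) and 1 fell (7.69%), with XBP1 at 0.45, SEC61B at 0.53 and PDIA4 at -0.69. Of 10 interferon-induced genes IRF1 alone rose (10%), by 0.49, and 3 fell (30%), IFI6 (-0.60) among them.

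In LV5-NID1 against LV5, few members were called. Of the 34 members 4 rose (11.8%), against 7.27% of all 15508 genes tested, and 1 fell (2.94%), against 9.32%. The other 29 were not called. The median log2 fold change was 0.05 over the members and 0.0059 over all genes. The groups did not overlap for 20 of 34 members (58.8%), against 43.3% of all genes. Of the genes called, 43.8% were higher in LV5-NID1, and 54.7% under quantile normalization. No member changed by 1 or more on the log2 scale with a call. LV5-NID1 replicate 3 stood apart, with a mean correlation of 0.964 to its own group, against 0.974 and 0.979 for its other 2 libraries and 0.987 for each LV5 library. Epithelial markers summed to 927 to 988 TPM in LV5-NID1 and 1633 to 1673 TPM in LV5, nearly all of it KRT8 and KRT18. KRT8, KRT18 and KRT19 were called lower in LV5-NID1. EPCAM was called higher, at means of 9.05 TPM in LV5-NID1 and 5.03 TPM in LV5. The part of these markers in the results was not tested.

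All 4 members that rose were synthetases. LARS, for leucine, had 123, 136 and 144 TPM in LV5-NID1, against 96.8, 99.9 and 95.5 TPM in LV5. The groups did not overlap, the log2 fold change was 0.46 ± 0.07 (SE, n = 3 each, limma adjusted p = 0.0110), and without LV5-NID1 replicate 3 it was 0.41 (adjusted p = 0.00713). WARS averaged 308 ± 26.7 TPM in LV5-NID1 and 246 ± 8.94 TPM in LV5 (SD). EPRS averaged 222 ± 17.8 TPM in LV5-NID1 and 182 ± 4.48 TPM in LV5, and SARS 453 ± 30.1 TPM in LV5-NID1 and 383 ± 5.33 TPM in LV5. Their limma adjusted p-values were 0.0353, 0.0379 and 0.0415, and without LV5-NID1 replicate 3 their log2 fold changes were 0.25, 0.23 and 0.19. All 4 calls remained without LV5-NID1 replicate 3, but none of them did without LV5-NID1 replicate 2 or without LV5 replicate 1, and LARS alone did without LV5 replicate 2 or LV5 replicate 3. MARS again varied by replicate, with replicate 2 highest in both groups, at 231 TPM in LV5-NID1 and 257 TPM in LV5.

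SLC3A2, the transporter heavy chain, was the member that fell. It had 412, 401 and 404 TPM in LV5-NID1, against 508, 533 and 528 TPM in LV5. Its groups did not overlap (log2 fold change -0.37 ± 0.04, SE, limma adjusted p = 0.00504, and -0.36 without LV5-NID1 replicate 3), and it was the 1 of the 5 called members whose call held under each of the 15 alternatives to scaling, filter, pseudocount, variance model and libraries. Its partner SLC7A5 had 415, 389 and 247 TPM in LV5-NID1, against 552, 557 and 494 TPM in LV5. All 3 LV5-NID1 libraries lay below LV5, replicate 3 farthest, and the change of -0.64 ± 0.20 was not called (limma adjusted p = 0.0752).

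ATF4 itself had 355, 369 and 387 TPM in LV5-NID1, against 316, 319 and 341 TPM in LV5. The LV5-NID1 libraries all lay above the LV5 libraries, by 0.19 ± 0.05 on the log2 scale (SE), with a limma adjusted p of 0.0662 that ranged between 0.0217 and 0.192 under other settings. Without LV5-NID1 replicate 3 the ATF4 change was 0.16 (limma adjusted p = 0.0721). CHAC1 had 14.3, 12.1 and 5.70 TPM in LV5-NID1, against 21.1, 23.3 and 21.2 TPM in LV5. DDIT4 had 177, 155 and 98.2 TPM in LV5-NID1, against 239, 243 and 241 TPM in LV5. NUPR1 had 169, 182 and 90.2 TPM in LV5-NID1, against 221, 245 and 251 TPM in LV5. In all 3 genes replicate 3 was the lowest LV5-NID1 library and the groups did not overlap, yet none was called (limma adjusted p = 0.0627, 0.0518 and 0.0995).

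CHAC1 and DDIT4 passed the threshold without LV5-NID1 replicate 1 (limma adjusted p = 0.0492 and 0.0409). Without LV5-NID1 replicate 3 these 3 genes and SLC7A5 passed the threshold, with smaller changes. CHAC1 was then at -0.69 (adjusted p = 0.00616), DDIT4 at -0.54 (0.00404), NUPR1 at -0.44 (0.00968) and SLC7A5 at -0.41 (0.0113) in limma on the log2 scale. PHGDH, at 716 ± 51.6 TPM in LV5-NID1 and 599 ± 28.6 TPM in LV5 (SD, n = 3 each), was called as higher without that library (adjusted p = 0.0381) and not with it (0.0516). This gave 5 members higher and 5 lower, against 4 and 1 with all libraries. DDIT3, TRIB3 and SESN2 had log2 fold changes of 0.04, -0.07 and 0.04, with overlapping groups.

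**Figure D5:**
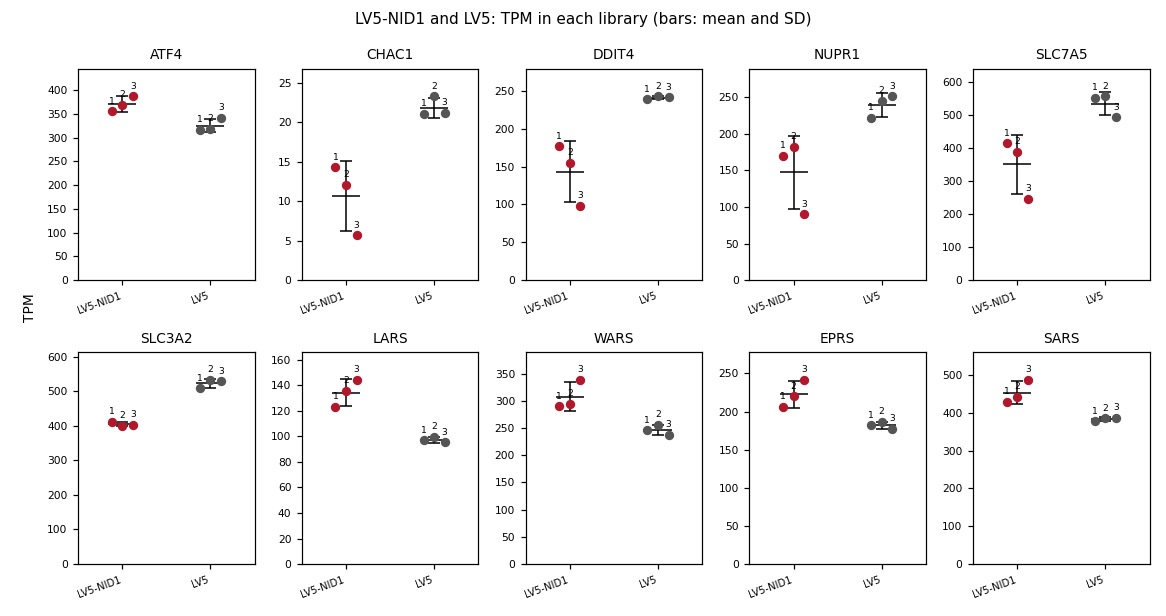
TPM of 10 members in each LV5-NID1 library (left in each panel) and each LV5 library (right), numbered by replicate, with mean and SD and the y axis from 0. LV5-NID1 replicate 3 is the lowest LV5-NID1 library for CHAC1, DDIT4, NUPR1 and SLC7A5 and the highest for ATF4, LARS, WARS, EPRS and SARS.

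The pathway lists in LV5-NID1 are given beside the 7.27% of all genes tested that rose and the 9.32% that fell. Of the 19 other ATF4-linked genes that passed the filter, 2 rose (10.5%) and 5 fell (26.3%). CEBPG, a partner of ATF4, averaged 58.9 ± 3.59 TPM in LV5-NID1 and 45.7 ± 1.0 TPM in LV5 (SD), and CTH, which makes cysteine, averaged 33.99 ± 2.99 TPM in LV5-NID1 and 49.7 ± 0.264 TPM in LV5. SLC7A11, the cystine carrier and also one of the other transporters, averaged 29.01 ± 1.90 TPM in LV5-NID1 and 37.4 ± 1.90 TPM in LV5. Among 14 other transporters 1 rose (7.14%) and 3 fell (21.4%), SLC1A1 (-0.50) and SLC7A8 (-0.92) with SLC7A11. SLC7A8 was near the floor, at 0.56, 0.62 and 0.64 TPM in LV5-NID1 and 2.84, 1.81 and 1.58 TPM in LV5. It passed the filter only through LV5, and its log2 fold change ran between -1.58 and -0.33 under other settings. Among 11 other cytosolic synthetases and scaffold proteins 4 rose (36.4%) and none fell. FARSB, for phenylalanine, was at 0.39, RARS at 0.29 and DARS, for aspartate, at 0.27 on the log2 scale. The mitochondrial synthetases gave 1 higher, NARS2 (0.34), and 1 lower, CARS2 (-0.48), of 17 (5.88% each way). Of 15 genes for eIF2, its kinases, eIF2B and eIF2 phosphatase, 1 rose and 1 fell (6.67% each way). EIF2B4 rose by 0.44 and PPP1R15B, the constitutive eIF2 phosphatase subunit, fell by 0.35. Of 13 ER chaperone and XBP1-branch genes 1 rose (7.69%) and 3 fell (23.1%), PDIA4 (-0.34), HSPA5 (-0.21) and CRELD2 (-0.77). Of 9 interferon-induced genes tested 4 fell (44.4%) and none rose, led by OAS1 (-0.76), IFI6 (-1.78) and IFITM1 (-0.71). Of the 18 genes named from these lists, EIF2B4, CTH, PDIA4, OAS1, IFI6 and IFITM1 kept their call under all alternatives to scaling, filter, pseudocount, variance model and libraries, and the other 12 lost it under at least 1 of them.

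Set side by side, the 3 comparisons gave no member that was higher in all 3 and none that was lower in all 3. SLC3A2 was the single member called in all 3: it was higher in SW480-LM3 (0.36) and in EV-XP-NID1-LX-2 (0.74) and lower in LV5-NID1 (-0.37). There were 15 members called in opposite directions in at least 2 comparisons. The share of all genes with such calls was not computed, so this count is not read as particular to the members. Between SW480-LM3 and EV-XP-NID1-LX-2, which share no libraries, 17 members were called in both and 7 of these 17 moved the same way (41.2%), against 39.8% of 5012 genes called in both. Those 7 were ATF4, PPP1R15A, SLC3A2, SLC1A5 and YARS, which were higher in both comparisons, and GARS and IARS, which were lower in both. GARS lost its call or its direction under some alternatives in each comparison. SLC1A5 lost its call under quantile normalization in EV-XP-NID1-LX-2. The other 10 of the 17 went opposite ways. TRIB3, DDIT4, DDIT3, SESN2, SHMT2, AARS, CARS and ALDH1L2 were higher in SW480-LM3 and lower in EV-XP-NID1-LX-2. NUPR1 and NARS were lower in SW480-LM3 and higher in EV-XP-NID1-LX-2. The ALDH1L2 call in each comparison and the NARS call in EV-XP-NID1-LX-2 did not hold under all alternatives. The 5 members called in both SW480-LM3 and LV5-NID1 all went opposite ways, against 54.6% of 1977 genes that moved the same way. EPRS, LARS, SARS and WARS were lower in SW480-LM3 and higher in LV5-NID1, where their calls did not hold under all alternatives.

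TPM allows levels to be compared between genes. The tables were normalized separately, so no test was made across them. TARS was the highest member in LV5-NID1, LV5 and EV-XP-LX-2, at 743 ± 42.2, 651 ± 27.7 and 786 ± 24.3 TPM (SD, n = 3 each). In EV-XP-NID1-LX-2, where TARS had 763 ± 24.3 TPM, SLC3A2 (1046 ± 33.2) and PPP1R15A (1023 ± 60.2) stood above it and did not differ from each other beyond their spread. ALDH1L2 was the lowest member in all 4 groups, at 6.39 to 13.9 TPM. PPP1R15A was second among the members in the LX-2 groups, and at 32.5 ± 1.80 TPM in LV5-NID1 and 36.6 ± 2.19 TPM in LV5 it was among the lowest in those. STC2 was at 376 TPM in both LX-2 groups, and at 48.5 ± 3.46 TPM in LV5-NID1 and 59.0 ± 4.53 TPM in LV5. NUPR1 had the opposite pattern, at 25.9 ± 2.05 TPM in EV-XP-NID1-LX-2 and 18.3 ± 2.07 TPM in EV-XP-LX-2, against 147 ± 49.8 TPM in LV5-NID1 and 239 ± 15.8 TPM in LV5.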

How the data were processed

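Poly(A) RNA of 18 cell-line libraries was sequenced, per the labels. The first deposited table holds a normalized signal: the authors divided reads by 1 factor per library, as read from the values, in which every value is a whole number of reads within 0.05. The other 2 deposited tables hold TPM, as read from their totals. HISAT2 2.1.0 and Bowtie2 2.3.5 stand in the submitters' processing notes; for the counter, genome build, annotation and strand setting the sources used here name nothing. Symbols of the first table come from its first symbol column, since its second names MARS, GARS and SARS otherwise. Each comparison was fitted in its own table with limma 3.58.1 (R 4.3.3) with a variance trend on log2(value + 1), over genes reaching 1 in 3 or more libraries, with Benjamini-Hochberg adjustment over all of them and a call at 0.05. Fold changes on this scale understate changes of low genes. edgeR 4.0.16 and DESeq2 1.42.0 were run on the recovered reads as alternatives. The fits were also run on simulated data with far fewer changed genes than were called here, so that run cannot vouch for these fits. The deposited values leave the depth of the TPM tables unknown, so no interval was given for them, and intervals on recovered reads cover counting error only.

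The members, pathway lists and marker lists were chosen with earlier results of these data known, and no p-value was adjusted over a list alone. Named from each pathway list were up to 3 called genes with the smallest adjusted p per comparison. Some genes that this rule names are not reported here. Per-library values were due for ATF4 and for up to 10 called members changed by 1 or more on the log2 scale, by size. Promoter windows and sequences are RefSeq's (GRCh38.p14). Gene positions are those of GENCODE 29 (GRCh38), in which 98.2% and 98.3% of the Ensembl IDs of the TPM tables were found, 65.2% and 64.4% with the same version. SHMT2, ALDH1L2, MTHFD2, SLC1A5, YARS and WARS, like MARS and DDIT3, overlap a coding gene on the opposite strand, so their reads are uncertain without a strand setting. Replicate numbers were not read as pairs, since same-numbered libraries deviated from their group means with correlations between -0.0474 and 0.0632.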

Additional observations from a re-analysis of the deposited data

How the results depend on the processing

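In SW480-LM3, 31 of the 33 called members kept their call and direction under all 16 alternatives to scaling, pseudocount, filter, variance model, test and libraries; ALDH1L2 and GARS did not. Leaving out 1 library gave 21 to 22 higher, 11 lower and 12485 to 12563 genes called (12749 with all). Asking for a change of 1 or more on the log2 scale gave 14 higher and 4 lower members among 6592 genes. Reversed values were PSAT1 (0.21), GARS (0.049) and HSP90B1 (0.10) under quantile normalization and PSAT1 (0.26) and GARS (0.10) under library-total scaling, which moved the median of all genes to 0.26, so that relative to this shift PSAT1 stayed near 0 and GARS below it.

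In EV-XP-NID1-LX-2, 13 of the 18 called members kept their call under all 15 such alternatives. Median-ratio scaling gave 12 higher; leaving out 1 library gave 6 to 13 higher, 8 to 11 lower and 4762 to 7132 genes called (6687 with all). A log2 fold change of at least 1 gave 0 and 0 members among 280 genes.

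In LV5-NID1, 1 of 5 called members, SLC3A2, kept its call under all 15. Higher members numbered 8 under quantile normalization, 1 without the low filter (1532 genes called, against 2572) and 1 without the variance trend. Lower members numbered 2 under quantile normalization, median-ratio scaling, TPM rescaled without mitochondrially encoded genes and a mean of at least 5, and 3 at a pseudocount of 5. Leaving out 1 library gave 0 to 5 higher, 1 to 5 lower and 713 to 3325 genes called; LV5-NID1 replicate 2 and each LV5 library lowered the count of genes by over 1.5 times (750, 713, 714 and 1045), as did LV5-NID1 replicate 1 (1675). A log2 fold change of at least 1 gave 0 and 0 members among 220 genes. The cause of these differences was not tested.

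With the replicate number as a block, SW480-LM3 gave 22 higher and 11 lower members, EV-XP-NID1-LX-2 6 and 9, and LV5-NID1 1 and 1 (12725, 5956 and 890 genes called). Labels do not say that a number marks a shared culture or day, so the block has no basis in the design; not every library correlated best with its own number.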
